A study of Homo sapiens with 42 samples.

Results

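The unfolded protein response genes described here are HSPA5, XBP1, ERN1, DNAJB9, HERPUD1, SDF2L1, HYOU1, PDIA4, CRELD2 and HSP90B1, 10 genes taken by symbol. They were chosen with earlier results of these data known. All 10 were present in the table of each cell line, among 57820 rows per table, and all 10 passed the filter on low values in each line. The 42 RNA-seq samples were from 5 B-cell precursor acute lymphoblastic leukaemia (B-ALL) cell lines engineered to carry more or less NSD2, a histone H3 lysine methyltransferase listed in the tables under its older symbol WHSC1. Reh and 697 carried an empty vector (EV), overexpressed wild-type NSD2 (WT) or overexpressed mutant NSD2 with the E1099K change (EK), as 2 libraries per arm for Reh and 3 per arm for 697. The knockdown lines were RS411 (RS4;11), RCH (RCH-ACV) and SEM, with a non-targeted control shRNA (NT) or the NSD2 hairpin sh2 in 3 replicates each, and 3 further libraries per line are titled sh5, a second hairpin that the design text does not describe. WT and EK share the EV libraries of their line, and sh2 and sh5 share the NT libraries, so the comparisons within a line are not independent. Whether the replicates came from separate cultures is not stated in the labels, so the p-values cover the spread between the sequenced samples, and that spread may be technical.

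The unfolded protein response is the programme by which a cell adjusts the folding capacity of its endoplasmic reticulum (ER). ERN1 encodes IRE1 alpha, an ER membrane sensor whose nuclease activity splices XBP1 mRNA, and spliced XBP1 encodes a transcription factor that, together with ATF6, raises the genes of ER chaperones, disulphide isomerases and the degradation of misfolded proteins. In the B lineage XBP1 is best known for building the secretory apparatus of plasma cells. Gene-level read counts do not separate spliced from unspliced XBP1, so splicing was not measured.

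The promoters of these genes are known for the ER stress response element, shown here because these 10 genes are commonly treated as 1 regulated set. RefSeq windows of GRCh38.p14, from 250 bases before the annotated start to 50 after it, were found for all 10 genes, with 12 windows in all, and were searched on both strands. An element of CCAAT, any 9 bases and CCACG (ERSE) was found in the windows of 4 genes and in 0.0769% of all 35116 windows. The related ERSE-II, ATTGG, any 1 base and CCACG, was found for 3 other genes and in 0.0541% of all windows. TGACGTGG, the core of a further response element, was found for 1 gene, HYOU1, overlapping its ERSE-II, and in 0.729% of all windows. The shared CCACG alone, which is part of both longer elements, was in 38.1% of all windows. The lines below run 5′ to 3′ on the gene's strand from 20 bases before the first element to the last base before the start, with the matched elements on either strand in capitals. Their places are HSPA5 chr9:125241344-125241429 (minus strand), XBP1 chr22:28800570-28800641 (minus strand), HSP90B1 chr12:103930196-103930409 (plus strand), CRELD2 chr22:49918534-49918633 (plus strand), HERPUD1 chr16:56932005-56932141 (plus strand), SDF2L1 chr22:21642094-21642301 (plus strand), HYOU1 chr11:119057206-119057413 (minus strand).
HSPA5: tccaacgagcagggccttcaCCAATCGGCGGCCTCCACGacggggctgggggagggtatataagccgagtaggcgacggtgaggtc
XBP1: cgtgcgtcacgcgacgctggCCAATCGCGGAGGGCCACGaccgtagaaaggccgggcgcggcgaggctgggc
HSP90B1: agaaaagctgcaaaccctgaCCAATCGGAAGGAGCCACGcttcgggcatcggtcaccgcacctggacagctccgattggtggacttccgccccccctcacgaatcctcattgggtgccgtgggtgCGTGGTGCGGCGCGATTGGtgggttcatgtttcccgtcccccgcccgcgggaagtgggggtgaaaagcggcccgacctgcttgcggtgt
CRELD2: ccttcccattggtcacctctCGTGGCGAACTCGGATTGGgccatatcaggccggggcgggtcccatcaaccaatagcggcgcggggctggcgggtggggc
HERPUD1: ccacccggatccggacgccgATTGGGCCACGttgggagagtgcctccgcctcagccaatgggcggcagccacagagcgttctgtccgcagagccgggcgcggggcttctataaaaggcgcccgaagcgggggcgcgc
SDF2L1: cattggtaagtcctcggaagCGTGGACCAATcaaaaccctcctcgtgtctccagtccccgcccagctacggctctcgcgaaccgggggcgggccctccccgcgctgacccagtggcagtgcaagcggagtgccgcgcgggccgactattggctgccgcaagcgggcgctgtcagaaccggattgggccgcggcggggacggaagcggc
HYOU1: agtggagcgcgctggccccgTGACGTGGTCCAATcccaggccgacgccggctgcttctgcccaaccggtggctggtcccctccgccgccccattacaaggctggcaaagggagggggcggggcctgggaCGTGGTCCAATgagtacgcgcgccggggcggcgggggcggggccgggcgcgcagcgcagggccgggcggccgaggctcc
HSP90B1 and HYOU1 held 2 long elements each. ERN1, DNAJB9 and PDIA4 held neither ERSE nor ERSE-II in these windows. A match is a description of the letters and was not tied to any value below.

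Depth ran from 21876505 to 67651596 reads per library over all lines. NSD2 itself went the way of the labels: in Reh it was 576.4 and 580.6 CPM (a gene's reads scaled to the size of its library) with EV against 1533 to 1831 with WT or EK, and in 697 7723 to 10854 normalized counts with EV against 70828 to 110659. All sh2 and sh5 libraries were lower than all NT libraries within each line, with log2 changes of -0.71 (sh2) and -0.83 (sh5) in RS411, -0.77 and -0.80 in RCH, and -0.99 and -1.28 in SEM. Of these knockdowns those in SEM passed the test (edgeR adjusted p = 8.92e-09 and 1.87e-09), whereas those in RS411 (0.118 and 0.164) and RCH (0.0952 and 0.508) did not. The summed level of 10 B-lineage precursor markers was 1290 to 9785 CPM and that of 6 plasma cell markers 12.6 to 696.7 CPM, against at most 43.9 for 6 T and NK, 58.8 for 6 myeloid, 37.9 for 6 erythroid and megakaryocytic and 19.2 for 6 stromal and epithelial markers. The highest B-lineage precursor sums, in Reh, were carried by RAG1 (4206 to 6036 CPM), and VPREB1 was at 0 CPM in that line. In SEM DNTT, RAG1 and RAG2 were at most 3.04, 3.28 and 9.10 CPM. The highest plasma cell sums, in 697, were carried by IGJ (389.0 to 567.2 CPM) and IRF4 (108.0 to 145.4 CPM). PRDM1 was at most 3.39 CPM there, and SDC1, TNFRSF17 and SLAMF7 at most 0.198 CPM. In these bulk samples fewer cells of a type and less RNA per cell cannot be told apart.

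Across the 10 comparisons with a control arm, few of the 10 genes changed, and those that passed the test were higher with the NSD2 hairpins. ERN1 rose with sh2 in RCH and with both hairpins in SEM, and HERPUD1 rose with sh2 in SEM. None of the 10 fell under the test used throughout, edgeR's quasi-likelihood F-test (limma for 697) with Benjamini-Hochberg adjustment over all genes and a call at an adjusted p under 0.05. With sh2 in SEM 2 of the 10 genes were called, where 27.9% of all genes were, and with sh5 1 was, where 21.3% of all genes were. In RCH 1 was called with sh2, against 1.37% of all genes, and 0 with sh5, against 0.0229%. In RS411 none was called with sh2 or sh5, where 1.67% and 0.478% of all genes were, and 1 of the 10 had an unadjusted p under 0.05 in each. In Reh none was called with WT (0.219% of all genes) or EK (0.213%), and in 697 none with WT (0.190%) or EK (0.172%), with no unadjusted p under 0.05 among the 10 in these 4 comparisons. The SEM counts sit in comparisons in which a large share of all genes was called, so a count of 2 or 1 is no more than that share gives.

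**Figure D1:**
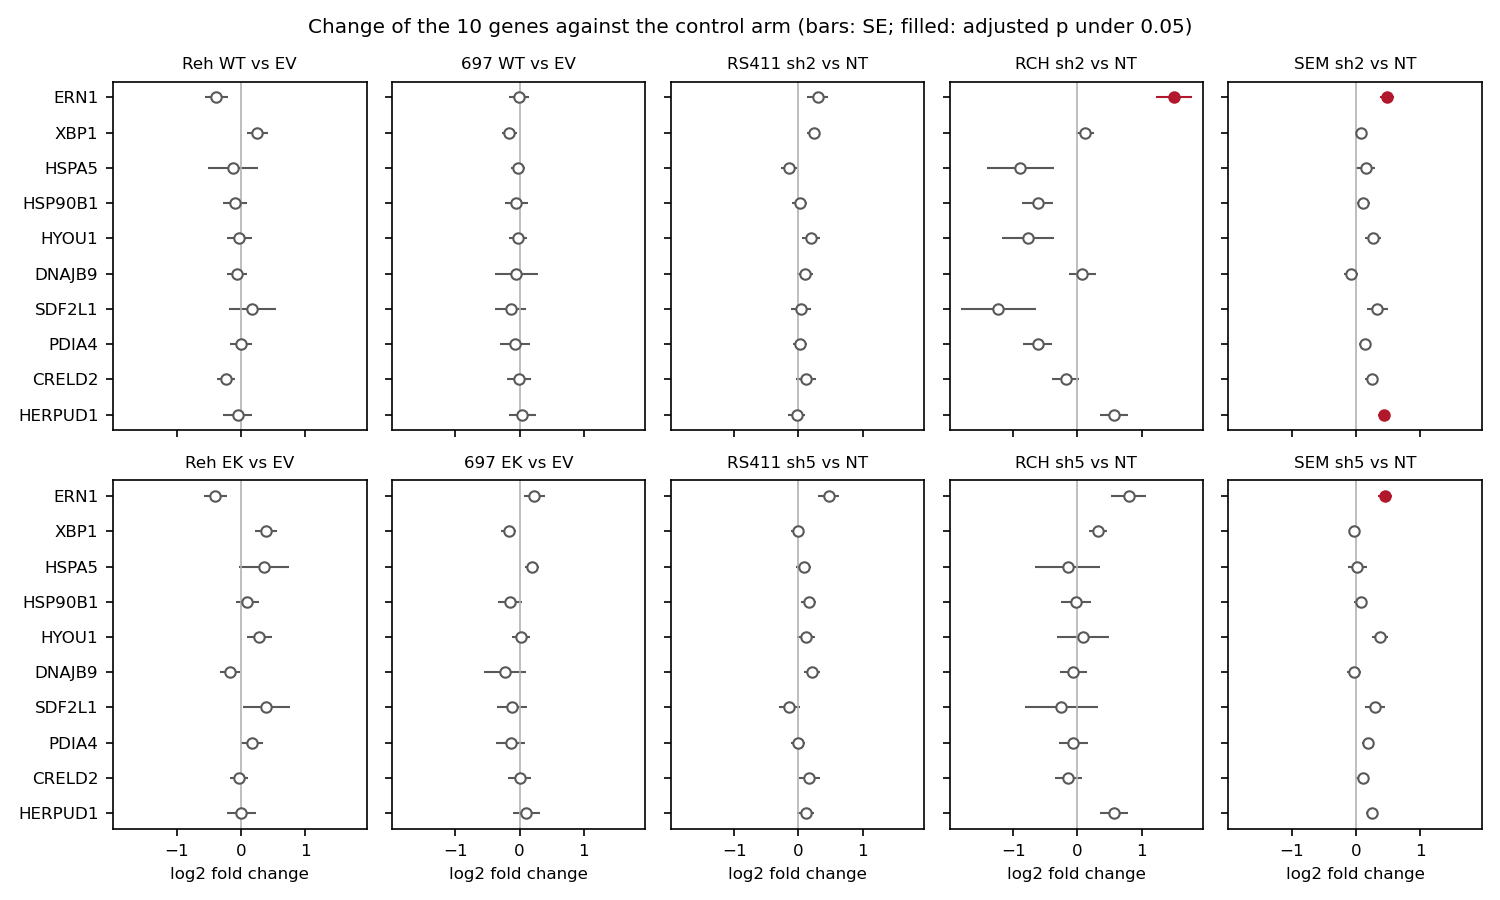
Log2 fold change (x axis) of each of the 10 genes (y axis) against the control arm of its line, in 10 panels, with bars for the standard error and filled points for an adjusted p under 0.05. ERN1 with sh2 in RCH lies at 1.50, and the other filled points are ERN1 with both hairpins and HERPUD1 with sh2 in SEM.

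ERN1, the sensor, was the gene of the set most often called. In RCH it was 5.04, 4.28 and 5.56 CPM in the NT libraries and 18.9, 13.5 and 10.0 CPM in the sh2 libraries. All sh2 libraries lay above all NT libraries, and the log2 change was 1.50 ± 0.28 (SE, n = 3 per arm, edgeR adjusted p = 0.0327). In RCH 26.2% of all genes showed no overlap with NT for sh2 and 9.10% for sh5. The sh5 libraries of RCH held 11.0, 8.75 and 6.24 CPM, again all above NT, with a log2 change of 0.80 ± 0.27 that did not pass the test (adjusted p = 0.918). The call in RCH was lost on leaving out NT replicate 2 (adjusted p = 0.151), NT replicate 3 (0.136), sh2 replicate 1 (0.086) or sh2 replicate 2 (0.0813). In RCH the 6 plasma cell markers summed to 257.8 to 316.8 CPM with NT, 284.3 to 305.4 CPM with sh2 and 269.4 to 297.3 CPM with sh5, carried by IRF4 and SDC1. Of these 6, 5 were above a mean of 1 CPM with sh2, against 2 with NT and 3 with sh5. Beyond IRF4 and SDC1 the highest was IGJ, at 3.98 CPM or less. Marker sums of other cell types moved with the sh2 arm of RCH. The 6 stromal and epithelial markers summed to 2.64 to 6.23 CPM with NT, 8.84 to 19.2 CPM with sh2 and 1.88 to 12.9 CPM with sh5, carried by the collagen gene COL1A1 (1.74 to 12.7 CPM), with 2 of the 6 above a mean of 1 CPM with sh2 and none at 0 reads over a whole arm. The 6 myeloid markers summed to 18.0 to 25.2 CPM with NT, 11.0 to 16.5 CPM with sh2 and 17.4 to 26.9 CPM with sh5, with 1 of the 6 at 0 reads in each hairpin arm, and the part of these markers in the result was not tested.

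In SEM, ERN1 was 5.40, 5.84 and 5.55 CPM with NT, 7.37, 8.47 and 7.56 CPM with sh2 and 7.62, 7.17 and 8.12 CPM with sh5. Neither hairpin arm overlapped NT, and the arms overlapped each other. The log2 changes were 0.48 ± 0.11 with sh2 (edgeR adjusted p = 0.00437) and 0.45 ± 0.11 with sh5 (0.00872), in a line in which 39.4% of all genes showed no overlap with NT for sh2 and 35.6% for sh5. In SEM the sums of several marker lists moved with the arms as well. The 6 myeloid markers summed to 18.2 to 25.3 CPM with NT, 39.4 to 53.2 CPM with sh2 and 46.3 to 58.8 CPM with sh5, carried by CSF1R (12.6 to 46.5 CPM), with 3 of the 6 above a mean of 1 CPM and ELANE at 0 reads. The 10 B-lineage precursor markers summed to 1537 to 1645 CPM with NT, 1290 to 1348 CPM with sh2 and 1294 to 1357 CPM with sh5. The 6 plasma cell markers (PRDM1, IRF4, SDC1, IGJ, TNFRSF17 and SLAMF7) summed to 135.7 to 161.6 CPM with NT, 61.8 to 66.1 CPM with sh2 and 110.1 to 118.6 CPM with sh5, with IRF4 alone at 61.3 to 160.7 CPM and 1 of the 6 above a mean of 1 CPM in each arm. With sh2 the 6 T and NK markers (12.2 to 15.7 CPM against 16.9 to 22.5 CPM with NT) and the 6 erythroid and megakaryocytic markers (3.09 to 4.52 CPM, with a lowest NT value of 5.56 CPM) were also lower than with NT. The part of these markers in the SEM results was not tested.

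In RS411 ERN1 was 4.57, 5.35 and 4.67 CPM with NT, 6.06, 6.96 and 5.04 CPM with sh2 and 6.91, 7.43 and 5.83 CPM with sh5. The sh5 libraries stood above NT and the sh2 libraries overlapped it, with log2 changes of 0.30 ± 0.16 (sh2, adjusted p = 0.342) and 0.47 ± 0.16 (sh5, adjusted p = 0.29). Of all genes 19.6% showed no overlap with NT for sh5 in RS411. When the replicate number entered the fit as a block (replicate block), since same-numbered samples of RS411 deviated together, the sh5 change passed the test (edgeR adjusted p = 0.0381).

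The response of ERN1 to sh2 differed between the knockdown lines in a joint fit (edgeR test of the line by hairpin term, adjusted p = 0.0117 over 20225 genes, of which 7.93% were called), and ERN1 was the 1 gene of the 10 to pass. The log2 change was 1.50 in RCH, 0.48 in SEM and 0.30 in RS411, and the adjusted p became 0.0501 without RCH NT replicate 2 and 0.0537 without RCH sh2 replicate 1. The joint fit used 1 estimate of spread per gene for all lines. In the separate fits the SE of this change was 0.28 in RCH, 0.11 in SEM and 0.16 in RS411, so the joint fit may understate the spread in RCH. For sh5 none of the 10 differed between lines, where 1.75% of all genes did, and ERN1 had an adjusted p of 0.889.

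With overexpressed NSD2, ERN1 was not called in either line. In Reh it was 16.6 and 15.7 CPM with EV, 12.0 and 13.0 CPM with WT and 10.4 and 14.2 CPM with EK, so that both overexpressing arms lay below EV (log2 changes -0.38 ± 0.18 and -0.40 ± 0.18, adjusted p = 1 and 0.893). An absence of overlap is common between pairs of libraries: 30.2% of all genes showed it for WT and 27.9% for EK in Reh. In 697 the level, in the authors' normalized counts, was 444.0, 498.4 and 435.4 with EV, 469.8, 464.1 and 433.8 with WT and 557.4, 637.7 and 439.3 with EK. EK overlapped EV there, with a log2 change of 0.23 ± 0.16 (limma adjusted p = 0.986).

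**Figure D2:**
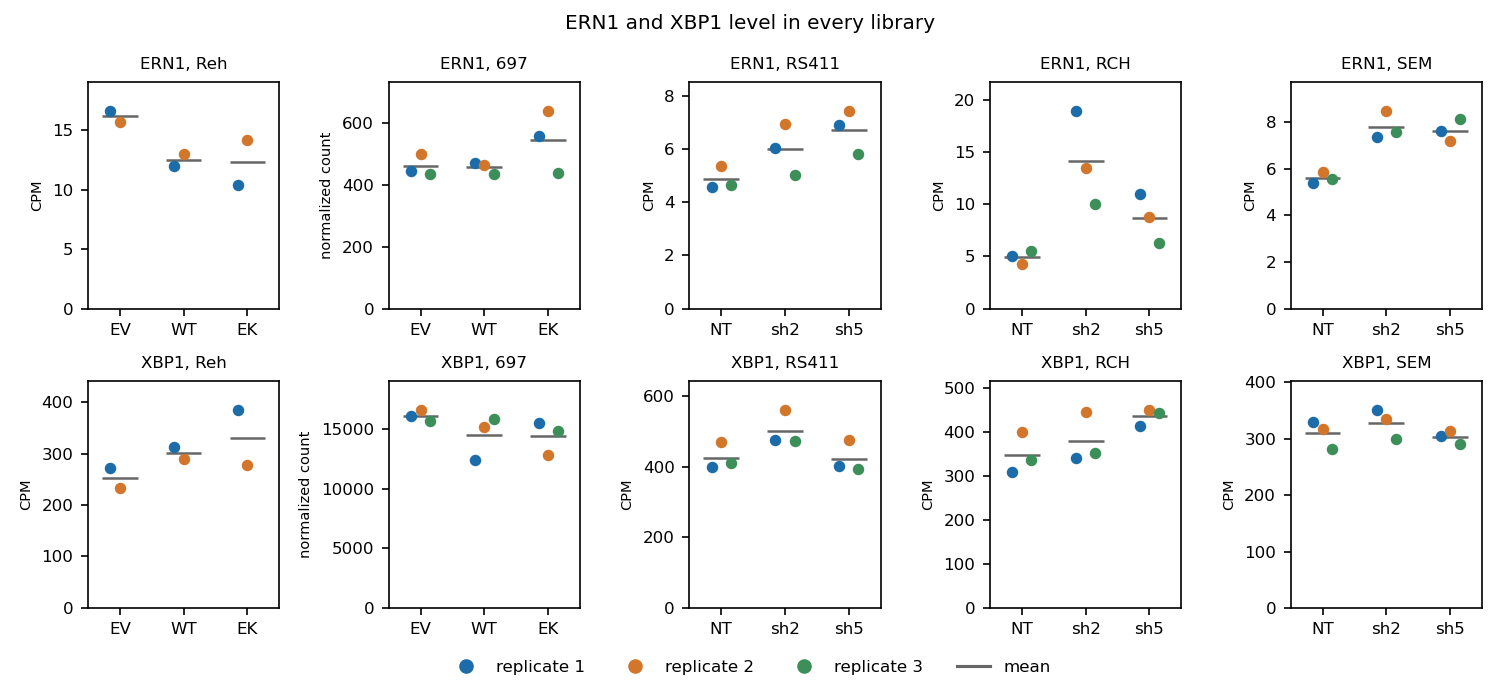
Level of ERN1 (top) and XBP1 (bottom) in every library, in CPM or, for 697, the authors' normalized counts, by arm (x axis), with points coloured by replicate number and a line at the mean. ERN1 in the RCH sh2 libraries (10.0 to 18.9 CPM) stands above NT (4.28 to 5.56 CPM).

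XBP1, the transcription factor made from the transcript that IRE1 alpha splices, moved less and was not called in any of the 10 comparisons. In RS411 it was 398.3, 468.8 and 410.5 CPM with NT and 474.4, 559.5 and 473.2 CPM with sh2, all above NT, in a comparison in which 21.5% of all genes did not overlap. The log2 change of 0.24 ± 0.10 did not pass the test (edgeR adjusted p = 0.226) until the replicate block was added (0.00584), with ratios of 0.25, 0.26 and 0.21 on the log2 scale in the 3 same-numbered pairs. The sh5 libraries of RS411, at 401.8, 474.2 and 393.1 CPM, overlapped NT (log2 change -0.01 ± 0.10). In RCH it was 307.4, 400.0 and 335.2 CPM with NT and 413.8, 448.3 and 442.9 CPM with sh5, without overlap, at a log2 change of 0.32 ± 0.14 (adjusted p = 1). In SEM all arms overlapped, with log2 changes of 0.08 ± 0.07 (sh2) and -0.03 ± 0.07 (sh5).

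For EK the XBP1 values of the overexpression lines lay on opposite sides of EV. In Reh it was 271.4 and 232.6 CPM with EV and 383.9 and 278.0 CPM with EK, all above EV, whereas in 697 it was 16137, 16577 and 15692 normalized counts with EV and 15511, 12841 and 14855 with EK, all below. An absence of overlap between EK and EV was seen for 27.9% of all genes in Reh and 8.36% in 697. The log2 changes were 0.39 ± 0.17 in Reh (edgeR adjusted p = 0.854) and -0.17 ± 0.12 in 697 (limma adjusted p = 0.986), and neither passed the test. With the replicate block XBP1 passed in Reh (edgeR adjusted p = 0.0115), where 6.43% of all genes were called. The difference between the 2 lines was not tested, as they were fitted from separate tables.

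HSPA5 encodes BiP, the main ER chaperone of the HSP70 family, and was not called in any comparison. In RCH it spread more than in the other lines: 72.2, 148.6 and 190.9 CPM with NT, 94.6, 79.6 and 47.9 CPM with sh2 and 43.2, 205.9 and 122.2 CPM with sh5, a 4.76-fold range within 1 line. High and low libraries occurred within both the NT and the sh5 arm, and the log2 changes of -0.89 ± 0.52 and -0.15 ± 0.51 were not called (edgeR adjusted p = 0.373 and 1). In SEM it was 151.3, 101.2 and 120.8 CPM with NT, 148.1, 141.7 and 122.9 CPM with sh2 and 141.4, 122.1 and 114.9 CPM with sh5. These arms overlapped, with changes of 0.15 ± 0.15 and 0.02 ± 0.15. In RS411 the log2 changes were -0.15 ± 0.12 (sh2) and 0.08 ± 0.12 (sh5). In 697 HSPA5 was 11440, 10542 and 11671 normalized counts with EV and 12909, 13217 and 12244 with EK, all above EV, at 0.19 ± 0.11 (limma adjusted p = 0.986). There 8.36% of all genes showed no overlap with EV for EK. In Reh the EK libraries held 106.3 and 46.7 CPM, on either side of the EV values of 68.7 and 50.7 CPM.

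HSP90B1, the ER member of the HSP90 family (GRP94), HYOU1, an HSP70-like nucleotide exchange partner of BiP, and SDF2L1, a cofactor of BiP and its J proteins, ranged 2.01-fold, 2.97-fold and 5.81-fold over the RCH libraries. SDF2L1 was 8.76, 23.8 and 35.3 CPM with NT, 11.2, 11.5 and 6.34 CPM with sh2 and 6.03, 23.9 and 27.4 CPM with sh5. HYOU1 was 69.0, 152.0 and 205.1 CPM with NT, 71.8, 98.0 and 80.4 CPM with sh2 and 73.9, 184.5 and 194.5 CPM with sh5. HSP90B1 was 348.4, 469.0 and 530.7 CPM with NT, 298.7, 280.4 and 297.8 CPM with sh2 and 275.8, 497.0 and 554.1 CPM with sh5. In all 3 genes NT replicate 1 and sh5 replicate 1 lay with the low libraries and the other NT and sh5 libraries were high, so that the sh2 arm resembled the low members of the other arms. For sh2 the log2 changes were -1.23 ± 0.58 for SDF2L1, -0.77 ± 0.41 for HYOU1 and -0.62 ± 0.24 for HSP90B1 (edgeR adjusted p = 0.287, 0.332 and 0.205). Among these only HSP90B1 had all sh2 libraries below all NT libraries. The low libraries held 41705601 (NT replicate 1), 37779252 (sh5 replicate 1) and 21876505 to 27390542 (sh2) reads, and the 4 high libraries 26362307 to 54879265, and the part of depth was not tested.

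PDIA4, an ER disulphide isomerase, followed the same libraries in RCH, at 207.6, 281.2 and 339.1 CPM with NT, 181.8, 179.1 and 176.7 CPM with sh2 and 171.3, 292.2 and 328.5 CPM with sh5. The sh2 libraries lay below NT without overlap (log2 change -0.62 ± 0.23, edgeR adjusted p = 0.199), and sh5 overlapped NT (-0.06 ± 0.23). CRELD2, an ER resident of the disulphide isomerase class, ranged less in RCH, 1.72-fold, with log2 changes of -0.18 ± 0.21 (sh2) and -0.14 ± 0.21 (sh5). DNAJB9 (ERdj4), a J protein that brings BiP to misfolded clients, was 12.3, 17.2 and 14.3 CPM with NT and 10.2 to 17.0 CPM in the hairpin libraries of RCH, without a separation of arms.

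HERPUD1, a membrane component of ER-associated degradation, had positive changes with both hairpins in SEM and RCH, and passed the test with sh2 in SEM. In SEM it was 39.8, 38.5 and 33.8 CPM with NT, 54.1, 52.4 and 44.5 CPM with sh2 and 45.8, 46.6 and 39.7 CPM with sh5. All sh2 libraries were above NT, and the log2 change of 0.43 ± 0.09 passed the test (edgeR adjusted p = 0.00193). The sh5 arm touched the NT range, with a change of 0.24 ± 0.09 that did not pass (adjusted p = 0.0732). In RCH it was 39.1, 57.2 and 67.6 CPM with NT, 76.5, 93.7 and 73.2 CPM with sh2 and 102.5, 68.8 and 71.2 CPM with sh5. Both hairpin arms lay above NT without overlap, at 0.57 ± 0.22 for each, but were not called (adjusted p = 0.205 and 1), and in that line 26.2% of all genes did not overlap for sh2 and 9.10% for sh5. In RS411 the arms overlapped, with changes of -0.03 ± 0.13 and 0.11 ± 0.13.

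**Figure D3:**
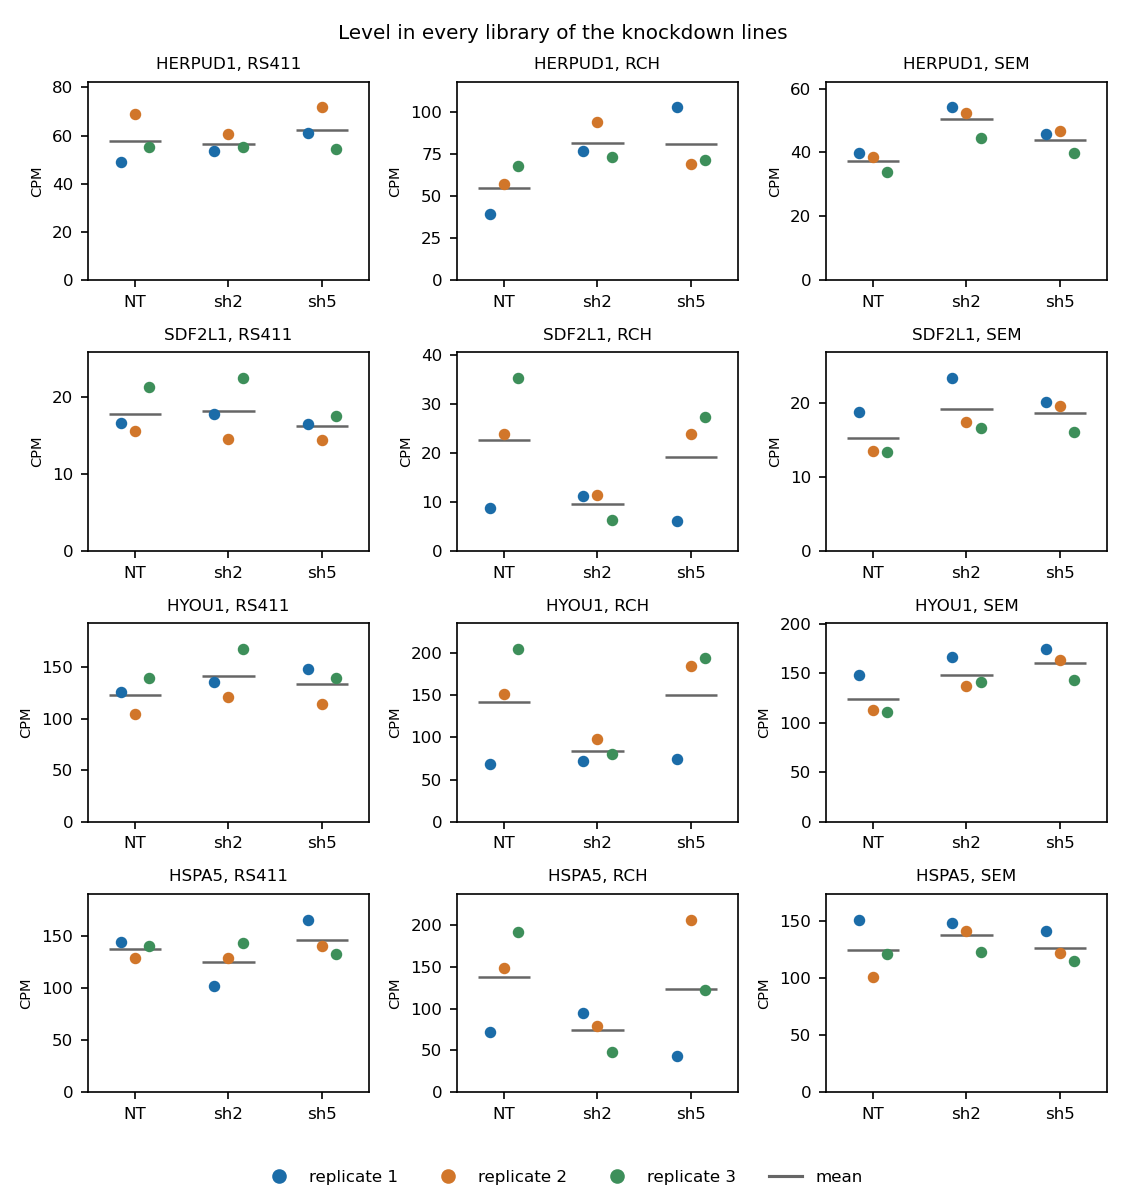
Level in CPM (y axes from 0) of HERPUD1, SDF2L1, HYOU1 and HSPA5 in each library of RS411, RCH and SEM by arm, with points coloured by replicate number and a line at the mean. In RCH, NT and sh5 each hold 1 low and 2 high libraries for SDF2L1 (6.03 to 35.3 CPM), and in SEM the sh2 points for HERPUD1 lie above NT.

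In SEM SDF2L1, HYOU1 and PDIA4 rose by small amounts with both hairpins once libraries were compared within replicate numbers, and CRELD2 and HSP90B1 with sh2. Samples with the same number deviated together in SEM, with correlations of deviations of 0.12 to 0.31. With the number as a block 7 of the 10 genes were called higher with sh2 and 5 with sh5, where 37.9% and 32.8% of all genes were called in the same fits. SDF2L1 was 18.8, 13.5 and 13.3 CPM with NT, 23.3, 17.4 and 16.6 CPM with sh2 and 20.1, 19.6 and 16.1 CPM with sh5. The arms overlapped, but sh2 was higher in 3 of 3 pairs, and the blocked log2 changes were 0.33 ± 0.08 with sh2 and 0.30 ± 0.08 with sh5 (edgeR adjusted p = 0.00305 and 0.00742). HYOU1 was 148.7, 113.3 and 111.1 CPM with NT, 166.8, 137.3 and 140.9 CPM with sh2 and 174.6, 163.0 and 143.1 CPM with sh5, again higher in 3 of 3 pairs for each hairpin. Its blocked changes were 0.26 ± 0.05 (adjusted p = 5.16e-04) and 0.37 ± 0.05 (1.68e-05). PDIA4 had blocked changes of 0.14 ± 0.05 (0.0244) and 0.18 ± 0.05 (0.00472). ERN1 and HERPUD1 were called with both hairpins in these fits. CRELD2 and HSP90B1 passed with sh2 (blocked changes 0.24 ± 0.07 and 0.12 ± 0.04, adjusted p = 0.0108 and 0.0457) and not with sh5 (0.324 and 0.201). The genes not called with either hairpin were HSPA5 (blocked changes 0.16 ± 0.09 and 0.03 ± 0.09, adjusted p = 0.218 and 0.855), XBP1 and DNAJB9, and DNAJB9 had negative changes (-0.08 ± 0.11 and -0.03 ± 0.11 without the block). Without the block, leaving out NT replicate 1, the NT library with the highest HSPA5, HYOU1 and SDF2L1, gave 6 called genes with sh2 and 5 with sh5. Leaving out a control library that is high for these genes raises their changes, so these counts are no separate evidence. Over all genes, the SEM fits without 1 library called 3915 to 4832 genes with sh2 and 2648 to 3899 with sh5. The marker sums that differed between the arms of SEM, given with ERN1, sit beside these results too, and their part was not tested.

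In RS411 the block likewise raised the counts, to 2 genes with sh2 (XBP1 and HYOU1, 14.5% of all genes called) and 1 with sh5 (ERN1, 5.41%). HYOU1 there was 125.3, 104.1 and 139.3 CPM with NT and 135.1, 120.8 and 167.5 CPM with sh2, overlapping but higher in 3 of 3 pairs (blocked log2 change 0.20 ± 0.06, edgeR adjusted p = 0.0431). The sum of 6 erythroid and megakaryocytic markers was 31.3 to 33.6 CPM with NT and 10.7 to 16.0 CPM with sh2 in RS411, with 2 of the 6 above a mean of 1 CPM, and its part was not tested.

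Neither NSD2 form was separated from the other, nor in most cases 1 hairpin from the other, by these genes. None of the 10 was called for EK against WT in Reh or 697, where 0% of all genes were called in both lines and 260 and 118 had an unadjusted p under 0.05. For sh2 against sh5 none was called in RS411 (0.577% of all genes), RCH (0%) or SEM (12.4%), and in RCH 1714 genes had an unadjusted p under 0.05. With the block XBP1 was higher with sh2 than with sh5 in RS411 (log2 difference 0.25 ± 0.05, edgeR adjusted p = 0.00603) and HERPUD1 in SEM (0.19 ± 0.05, 0.00962), each the 1 gene of the 10 called, where 9.06% and 20.7% of all genes were.

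After each level was centred on the mean of its line, HSPA5, SDF2L1, HYOU1, PDIA4, CRELD2 and HSP90B1 had Pearson correlations of 0.54 to 0.95 with each other over the 42 libraries, the highest between PDIA4 and HSP90B1. These values describe libraries that share lines and, within a line, arms and replicate numbers, and the RCH libraries have the widest range. Within a line, over 6 libraries in Reh and 9 in each of the others, the same correlations were 0.45 to 0.97 in Reh, 0.51 to 0.99 in RCH and 0.64 to 0.95 in SEM. In 697 they were -0.11 to 0.98 and in RS411 -0.14 to 0.92, and without HSPA5 they were 0.87 to 0.98 and 0.50 to 0.92 there. ERN1 had pooled correlations of -0.56 to -0.13 with these 6 genes, and within lines they were -0.68 to 0.09 in Reh, -0.66 to 0.51 in 697, -0.67 to -0.02 in RS411, -0.69 to -0.20 in RCH and 0.15 to 0.51 in SEM. The sign thus differed between lines. ERN1 and HERPUD1 were at 0.57 over the 42 libraries, at 0.62 to 0.71 in 697, RS411, RCH and SEM and at -0.35 in Reh. XBP1 had pooled correlations of -0.05 to 0.32 with the 6 genes, from -0.60 to -0.31 in RS411 up to 0.24 to 0.85 in Reh, and DNAJB9 -0.21 to 0.12, from -0.75 to -0.37 in Reh up to 0.43 to 0.65 in RCH.

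**Figure D4:**
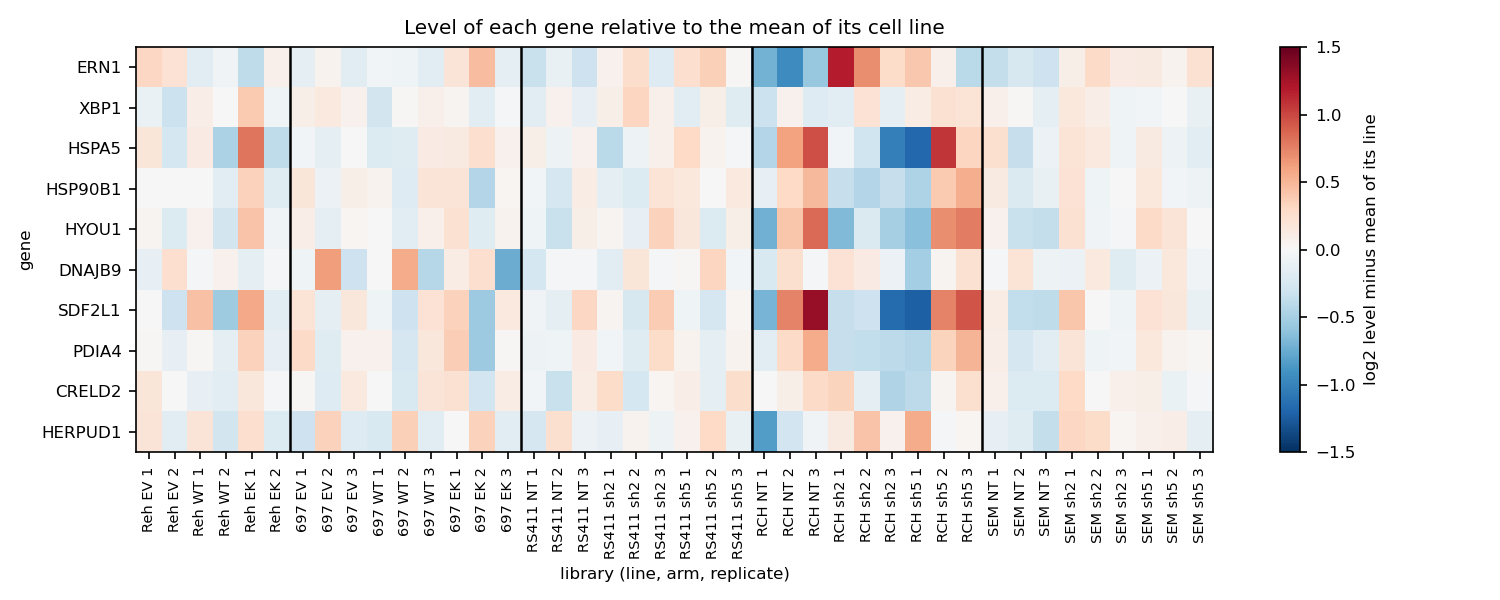
Log2 level of each of the 10 genes (rows) in each of the 42 libraries (columns, by line, arm and replicate) minus the mean of its line, from blue (lower) to red (higher). In RCH the rows of HYOU1, SDF2L1, PDIA4 and HSP90B1 are below the line's mean in NT replicate 1, the sh2 libraries and sh5 replicate 1 and above it in NT and sh5 replicates 2 and 3.

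Replicate number also marked the levels in the overexpression lines. In 697 replicate 2 of every arm had the highest DNAJB9 of its arm (1432 normalized counts with EV, 1368 with WT and 1060 with EK, against 555.7 to 1009 in the others) and the lowest PDIA4 (14502, 13857 and 10745, against 16687 to 21393). In Reh replicate 1 was above replicate 2 in every arm for HSPA5 (68.7 and 50.7 CPM with EV, 66.3 and 43.6 with WT, 106.3 and 46.7 with EK), HERPUD1, SDF2L1 and HYOU1. For PDIA4, CRELD2 and HSP90B1 in 697 the EK changes were -0.14 ± 0.23, 0.00 ± 0.18 and -0.15 ± 0.18, and for WT -0.07 ± 0.23, -0.01 ± 0.18 and -0.05 ± 0.18. The median log2 change of the 10 genes was -0.05 (WT) and 0.14 (EK) in Reh and -0.04 and -0.06 in 697, beside medians over all genes of -0.01, 0.01, -0.00 and -0.02. The same medians were 0.07 (sh2) and 0.12 (sh5) in RS411, -0.40 and -0.04 in RCH and 0.19 and 0.14 in SEM, beside all-gene medians between -0.02 and 0.01.

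The genes with levels most like the mean of the 10, over the 42 line-centred libraries and among 13031 genes, were DNAJB11, CLPTM1L, DDX19A, ABCF2 and NOP2, each at a Pearson r of 0.92. DNAJB11 (ERdj3) is a further BiP cochaperone of the ER lumen.

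The other genes of the pathway were 69, in lists of sensors and factors, chaperones, oxidoreductases, degradation, translocation and the PERK branch. Calls among them were mostly in SEM, the line with the largest share of all genes called. With sh2 14 of 69 were called higher and 8 lower there, and with sh5 11 higher and 7 lower, with a median log2 change of 0.10 in each, in comparisons in which 27.9% and 21.3% of all genes were called. The counts over the 69 lie near these shares, so they and the list counts below are no result about the pathway. In the sensor list ATF6 and ATF6B, the sensors cleaved in the Golgi, rose with sh2 (0.17 ± 0.06 and 0.25 ± 0.07, edgeR adjusted p = 0.0388 and 0.0119) and with sh5 (0.24 ± 0.06 and 0.24 ± 0.07, 0.00632 and 0.0183). EIF2AK3, which encodes the sensor kinase PERK, fell with both, from 59.1 to 65.8 CPM with NT to 43.8 to 49.9 CPM with sh2 and 47.6 to 50.2 CPM with sh5 (-0.40 ± 0.07 and -0.34 ± 0.07, adjusted p = 3.35e-04 and 0.00182). Among the degradation genes 5 of 14 rose and 2 fell with sh2, and 3 rose and 2 fell with sh5. OS9, a lectin that picks misfolded glycoproteins, rose by 0.33 ± 0.05 with each hairpin (adjusted p = 1.31e-04 and 2.12e-04). SYVN1, the ubiquitin ligase HRD1, fell by 0.30 with sh2 and by 0.26 with sh5 (adjusted p = 0.0123 and 0.0382), and DERL3, a channel component beside it, fell by 0.28 and by 0.48 (0.0287 and 0.00117). Of 10 oxidoreductases 2 rose and 1 fell with sh2 and 3 rose and 2 fell with sh5. PDIA5 rose from 4.84 to 5.11 CPM with NT to 7.12 to 7.42 CPM with sh2 and 7.75 to 9.18 CPM with sh5 (0.54 ± 0.11 and 0.74 ± 0.11, adjusted p = 0.00184 and 1.84e-04), and P4HB, the main disulphide isomerase, by 0.30 ± 0.07 and 0.26 ± 0.07 (0.00499 and 0.0149). Of 10 chaperones CANX, the lectin chaperone calnexin, and CRELD1 rose with sh2 and DNAJC1 fell by 0.63 (adjusted p = 1.33e-04), and none was called with sh5. Of 14 translocation genes 2 rose and 1 fell with sh2 and 3 rose and 2 fell with sh5.

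The PERK branch has the stress transcription factor DDIT3 (CHOP) among its outputs. The activity of PERK itself was not measured, and what moved the genes of its list was not tested. All 12 genes of that list had positive log2 changes with sh2 and with sh5 in RCH, with medians of 1.14 and 0.76 beside all-gene medians of -0.02 and -0.00, and none was called. With sh5 these values rested on sh5 replicate 1: without it 5 of the 12 changes were positive and the median was -0.07. With sh2 the median was 0.75 without sh2 replicate 2, all 12 changes stayed positive without any 1 RCH library, and 3 of the 12 were called when sh5 replicate 1 was left out of the fit. The share of all genes called in that fit was not determined, so the count of 3 cannot be read as a result about the list. DDIT3 was at most 13.4 CPM with NT, 25.7, 80.3 and 44.8 CPM with sh2 and 86.7, 10.4 and 12.1 CPM with sh5 (2.21 ± 0.80 and 1.74 ± 0.79, edgeR adjusted p = 0.199 and 1). CHAC1, a glutathione-degrading enzyme induced through ATF4, was 1.00, 5.29 and 4.64 CPM with NT, 5.19, 49.7 and 24.2 CPM with sh2 and 56.4, 3.72 and 1.39 CPM with sh5, with changes of 2.86 ± 1.36 and 2.50 ± 1.35 (adjusted p = 0.296 and 1). TRIB3, a pseudokinase induced through ATF4, was 29.9, 31.3 and 31.9 CPM with NT, 51.8, 92.4 and 53.4 CPM with sh2 and 132.3, 26.8 and 27.6 CPM with sh5. In all 3 genes sh5 replicate 1 was the highest library and the other sh5 libraries lay near NT. Of the 12 changes in 697, 10 were positive with WT and 9 with EK. Their medians were 0.32 and 0.37, beside all-gene medians of -0.00 and -0.02. In Reh the medians of the list were 0.01 (WT) and -0.00 (EK), in RS411 -0.04 (sh2) and 0.12 (sh5), and in SEM 0.14 and 0.15. ASNS, asparagine synthetase, fell by 0.90 with sh2 in RS411 (adjusted p = 0.0255), the 1 gene of the 69 called there, and by 0.49 in SEM (0.0279), the 1 PERK-list gene called in that line. No gene of the 69 was called in Reh, in 697, in RCH or with sh5 in RS411, with 1 to 13 of them at an unadjusted p under 0.05 in each of these comparisons with a control arm. With sh2 in RCH the median log2 changes of the other lists were 0.08 for sensors, -0.29 for chaperones, -0.21 for oxidoreductases, -0.10 for degradation and -0.21 for translocation.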

How the data were processed

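Stranded total RNA libraries of 42 samples were handled with Trimmomatic, STAR and featureCounts on hg19, per the submitters' processing notes. The sources used here give no tool versions. The authors deposited raw read counts for Reh, RS411, RCH and SEM. For 697 the authors' deposited normalized signal was used, in which each library's read counts share 1 scaling factor, and 100% of its values above 0 were whole reads within 0.001 reads once the factor was undone. In 3 of its libraries the factor is near 1, so an automated check could not tell these reads from rounding, and edgeR on the recovered reads served as an alternative only. Reh genes were named through identical reads (21690) or the Ensembl identifier (14663). In each knockdown line 27 names that had turned into dates were left out (0.214% of reads in RS411, 0.247% in RCH, 0.23% in SEM), and 6 columns that match no sample were not used.

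The count tables went into edgeR 4.0.16 under R 4.3.3 (quasi-likelihood F-test, TMM factors, filterByExpr by arm, robust), with the 3 arms of a line in 1 fit, and levels are CPM with TMM scaling. For 697, limma 3.58.1 with a trended eBayes step was run on log2(value + 1) after genes with a mean under 10 were dropped, and the log2 changes understate those of low genes. A joint edgeR fit of RS411, RCH and SEM tested the line by hairpin term with 2 degrees of freedom. Benjamini-Hochberg adjustment ran over all genes of a comparison. The fits were tested on simulated data with the same spread for all genes and no effect of replicate number. That test does not cover the uneven spread and shared deviations of these data. Means carry SDs in the tables and log2 changes carry SEs. Alternatives were DESeq2 1.42.0, RLE factors, no or other filters, other pseudocounts, the replicate number as a block and leaving out each library. Those for EK against WT, sh2 against sh5, the joint fit and the PERK list were added after the data were seen.

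Same-numbered samples deviated together (correlation over 0.1 in each of 3 pairs) in 697, RS411 and SEM and for sh5 in RCH, from the data and not from the labels. For sh2 against NT in RCH 1 pair was at -0.07, so it was not treated as paired. In Reh the correlations were 0.56 to 0.60, above those in RS411 and SEM. Reh has 2 pairs, which give the same value with 2 libraries per arm, so the rule of 3 pairs could not be applied and Reh was not treated as paired. Genes named are the 10 genes, NSD2, up to 3 called genes per pathway list and comparison with examples from the lists, and the 5 genes of highest Pearson correlation with the mean of the 10. The genes and lists were chosen with earlier results of these data known. Promoter sequences are from RefSeq (GRCh38.p14). Python 3.11.15, pandas 2.3.3, numpy 2.4.6 and matplotlib 3.10.9 were used.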

Additional observations from a re-analysis of the deposited data

Results flagged for a closer look

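The response of ERN1 to sh2 differed between RS411, RCH and SEM in the test of the line by hairpin term (edgeR adjusted p = 0.0117), with all 3 sh2 libraries above all 3 NT libraries in RCH and SEM and an overlap in RS411. Of all genes 26.2% showed no overlap with NT for sh2 in RCH and 39.4% in SEM. XBP1 with EK was above EV in both Reh libraries (log2 change 0.39) and below EV in all 3 libraries of 697 (-0.17). Such an absence of overlap was seen for 27.9% of all genes in Reh and 8.36% in 697. The difference between Reh and 697 was not tested, and neither change passed the test within its line without the replicate block.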

How the results depend on the processing

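Of 1020 log2 changes of the 10 genes recomputed under an alternative, 100 changed direction, 93 of them on leaving out 1 library and 7 otherwise, and 0 of the 100 were called in either fit. ERN1 with sh2 in RCH lost its call in the 4 fits without 1 library named above, and 35 values gained one. With the replicate number as a block the count of the 10 genes called went from 0 to 2 for sh2 and from 0 to 1 for sh5 in RS411, from 0 to 1 for sh2 against sh5 in RS411 and in SEM, and from 2 to 7 for sh2 and from 1 to 5 for sh5 in SEM. In Reh it went from 0 to 2 for EK (XBP1 and HYOU1, edgeR adjusted p = 0.0115 and 0.0447), where 6.43% of all genes were called. Same-numbered Reh samples had correlations of deviations of 0.56 to 0.60, from 2 pairs that cannot differ. The block changed no count of the 10 in 697 or RCH. Without a low-count filter the counts were 1 for sh2 in RS411, 4 for sh2 in RCH, 2 for sh2 against sh5 in RCH, 4 for sh2 and 5 for sh5 in SEM, and 6 for the difference between lines with sh2, and DESeq2 gave 2 for sh5 in SEM. Leaving out 1 library gave 0 to 1 for sh2 in RCH, 2 to 6 for sh2 and 1 to 5 for sh5 in SEM (3 without sh5 replicate 3), and 0 to 5 for the difference between lines with sh2, with 5 without RCH NT replicate 1. Calls over all genes are given below as ranges and not fit by fit, and not for the difference between lines. The counts without a filter, with DESeq2 and without 1 library therefore cannot be set against the share in their own fit. The cause of these shifts was not tested.

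Over all genes the calls ranged, under the alternatives other than a left-out library, from 35 to 629 for WT and from 34 to 1027 for EK in Reh and from 0 to 71 between them, from 18 to 205 for WT and from 17 to 189 for EK in 697, from 290 to 2495 for sh2 and from 85 to 929 for sh5 in RS411 and from 99 to 1555 between them, from 236 to 1937 for sh2 and from 5 to 199 for sh5 in RCH and from 0 to 704 between them, and from 4583 to 6455 for sh2, from 3497 to 5591 for sh5 and from 2088 to 3532 between them in SEM. The counts without an alternative were 35, 34, 0, 31, 28, 286, 82, 99, 239, 4, 0, 4760, 3623 and 2105 in the same order. Leaving out 1 library gave 0 to 8 for WT, 0 to 4 for EK and 0 between them in Reh, 18 to 29, 18 to 24 and 0 to 1 in 697, 11 to 1560 for sh2, 5 to 76 for sh5 and 20 to 821 between them in RS411, 15 to 620, 0 to 2 and 0 to 32 in RCH, and 3915 to 4832, 2648 to 3899 and 1474 to 1671 in SEM. The median log2 change of the PERK list in RCH was 0.75 to 1.24 with sh2 and -0.07 to 1.06 with sh5 without 1 library, fits that were added after the data were seen.

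The changes that turned direction were uncalled ones. For XBP1 with sh5 in RS411 DESeq2 gave 0.01 and no low-count filter 0.00, for PDIA4 there both gave 0.01, and edgeR on recovered reads gave 0.00 for CRELD2 with WT in 697, also with the block, and 0.00 for ERN1 there with the block. With each library left out in turn the log2 changes that turned ranged as follows. In Reh WT against EV, -0.45 to 0.15 for HSPA5, -0.24 to 0.14 for DNAJB9, -0.30 to 0.16 for HERPUD1, -0.39 to 0.58 for SDF2L1, -0.20 to 0.14 for HYOU1 and -0.08 to 0.07 for PDIA4. In Reh EK against EV, -0.36 to 0.82 for HSPA5, -0.34 to 0.03 for DNAJB9, -0.23 to 0.21 for HERPUD1, -0.02 to 0.71 for SDF2L1, -0.07 to 0.39 for PDIA4, -0.12 to 0.08 for CRELD2 and -0.18 to 0.32 for HSP90B1. In 697 WT against EV, -0.14 to 0.02 for HSPA5, -0.05 to 0.05 for ERN1, -0.31 to 0.22 for DNAJB9, -0.15 to 0.23 for HERPUD1, -0.10 to 0.04 for HYOU1, -0.19 to 0.05 for PDIA4, -0.11 to 0.10 for CRELD2 and -0.14 to 0.05 for HSP90B1. In 697 EK against EV, -0.43 to 0.06 for DNAJB9, -0.03 to 0.29 for HERPUD1, -0.31 to 0.17 for SDF2L1, -0.09 to 0.15 for HYOU1, -0.36 to 0.13 for PDIA4, -0.11 to 0.18 for CRELD2 and -0.30 to 0.05 for HSP90B1. In RS411 sh2 against NT, -0.14 to 0.12 for HERPUD1, -0.13 to 0.19 for SDF2L1, -0.10 to 0.14 for PDIA4, -0.02 to 0.26 for CRELD2 and -0.12 to 0.11 for HSP90B1. In RS411 sh5 against NT, -0.01 to 0.15 for HSPA5, -0.09 to 0.06 for XBP1, -0.23 to 0.01 for SDF2L1 and -0.04 to 0.07 for PDIA4. In RCH sh2 against NT, -0.01 to 0.24 for XBP1 and -0.03 to 0.21 for DNAJB9. In RCH sh5 against NT, -0.71 to 0.26 for HSPA5, -0.21 to 0.13 for DNAJB9, -0.62 to 0.23 for SDF2L1, -0.23 to 0.45 for HYOU1, -0.24 to 0.17 for PDIA4, -0.27 to 0.02 for CRELD2 and -0.21 to 0.23 for HSP90B1. In SEM sh2 against NT, -0.17 to 0.01 for DNAJB9. In SEM sh5 against NT, -0.11 to 0.19 for HSPA5, -0.09 to 0.02 for XBP1, -0.11 to 0.06 for DNAJB9 and -0.00 to 0.18 for HSP90B1.

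The 2 or 3 replicates per arm limit the tests.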
